A study of Homo sapiens with 56 samples.

Results

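DEPTOR, DDIT4, MTOR, TSC1, TSC2 and AKT1S1 encode the mTOR kinase and proteins that hold it in check. They were looked up by symbol in the annotation of the Affymetrix array used for the study, and every probe set annotated with 1 of these symbols was taken. This gave 7 of the 22215 probe sets tested, for 5 of the 6 genes. DEPTOR (218858_at), DDIT4 (202887_s_at) and TSC1 (209390_at) had 1 probe set each. MTOR had 202288_at and 215381_at, and TSC2 had 215735_s_at and 215624_at, with the brighter probe set named first. AKT1S1 had no probe set under its symbol, and 0 probe sets with several symbols named a member.

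The arrays came from PEO1 and PEO4, established human lines of high-grade serous ovarian carcinoma that carry the estrogen receptor. All cells were first kept for 3 days without steroid hormone, in medium with charcoal-stripped serum. In each line 4 arrays were made of untreated cells at 0 h, and 4 of each of 6 treatments that lasted 3 h. Cells received ethanol as vehicle, or estradiol (E2) at 1 nM, or an antagonist at 1 µM, either fulvestrant (written ICI) or 4-hydroxytamoxifen (written 4OHT). In the last groups each antagonist was combined with E2 at those doses. E2 is the natural agonist of the estrogen receptor. Fulvestrant is a steroid that blocks the receptor and speeds its degradation, while 4-hydroxytamoxifen is a non-steroidal ligand that blocks it in some tissues and activates it in others. The comparisons ask which genes the hormone moves early, whether either antagonist prevents this, and what each antagonist does without hormone. The labels do not say that the 4 arrays of a group were separate cultures, so the tests measure the spread between these arrays, which may be technical. Each line stands for 1 tumour cell population.

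The mTOR kinase works in the complexes mTORC1 and mTORC2. Of these, mTORC1 promotes protein synthesis and cell growth and restrains autophagy. DEPTOR binds mTOR in both complexes and inhibits it, and is itself removed through the β-TrCP ubiquitin ligase. TSC1 and TSC2 form a complex that switches off the GTPase RHEB, the direct activator of mTORC1. DDIT4, also called REDD1, is a short-lived protein induced by hypoxia, energy stress and glucocorticoids that lowers mTORC1 activity through the TSC complex. AKT1S1, also called PRAS40, is an inhibitory subunit of mTORC1.

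The promoter of DDIT4 is shown because DDIT4 was the member that changed most between 0 h and vehicle in PEO4. This gene is known for its response to hypoxia, which was not among the treatments. The 250 bases before its RefSeq start site on GRCh38.p14 are chr10:72273674-72273923 on the plus strand. They are written 5′ to 3′, with ACGTG, 1 form of the core of the hypoxia response element, in capitals. Other forms of the core were neither searched nor marked.
DDIT4 promoter: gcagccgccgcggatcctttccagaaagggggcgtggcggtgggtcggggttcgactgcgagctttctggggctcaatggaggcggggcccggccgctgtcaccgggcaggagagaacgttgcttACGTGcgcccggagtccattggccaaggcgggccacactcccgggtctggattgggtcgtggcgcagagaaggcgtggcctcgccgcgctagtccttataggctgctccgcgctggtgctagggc
ACGTG lies at bases -125 to -121 from the start site. Of 35116 RefSeq promoters of the same length, 18.5% held ACGTG on either strand. Promoters of 4 members were at hand, those of DDIT4, MTOR, TSC1 and TSC2, and among these DDIT4's was the one with ACGTG. Those of DEPTOR and AKT1S1 were missing, so the counts do not cover DEPTOR, the member called with E2. The estrogen response half-site GGTCA was found in 0 of the 4 and in 32.6% of all promoters. The full estrogen response palindrome, its half-sites 3 bases apart, was found in 0 of the 4 and in 0.0399% of all. The E-box CACGTG, which contains ACGTG, and the AP-1 site TGANTCA were also in 0 of the 4, against 6.34% and 6.57% of all promoters. The GC box GGGCGG occurred at 1 place in MTOR's and in TSC2's windows, at 2 places in TSC1's and in 42.6% of all. These matches describe letters in the window and were not tied to binding.

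The deposited log2 values had array medians of 7.40 to 7.48 in PEO1 and 7.84 to 7.91 in PEO4. Levels were therefore not tested across lines. Epithelial and serous markers (PAX8, WT1, MUC16, KRT7, KRT8, KRT18, EPCAM) and ESR1 had mean log2 values of 10.2 to 13.8, against 2.49 to 7.27 for the leukocyte, endothelial, fibroblast and hepatocyte markers checked. The log2 difference between the 3′ and 5′ control probe sets of ACTB, a sign of RNA quality, ran from -0.25 to 0.14 in PEO1. It ran from 0.24 to 3.41 in PEO4, where 0 h replicate 4 (2.28) and ICI replicate 1 (3.41) stood apart, and 4OHT with E2 replicate 4 (1.74) was the next highest. Results on these groups are also given without those arrays where that changed a call.

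DEPTOR rose with E2 in both lines. In PEO1 the vehicle arrays read 7.41, 7.31, 7.20 and 7.23, and the E2 arrays 8.06, 8.23, 8.20 and 7.86, on the log2 scale. The PEO4 vehicle arrays read 8.35, 8.28, 8.29 and 8.32, and those with E2 9.66, 9.52, 9.37 and 9.45. Every E2 array lay above every vehicle array of its line. The mean rose from 7.28 ± 0.094 to 8.09 ± 0.17 in PEO1 (SD, n = 4), a log2 difference of 0.80 ± 0.08 (SE), or 1.75-fold (limma, Benjamini-Hochberg adjusted p = 1.99e-07). In PEO4 it rose from 8.31 ± 0.032 to 9.50 ± 0.12, a log2 difference of 1.19 ± 0.07, or 2.28-fold (adjusted p = 2.98e-12). DEPTOR ranked 19 in PEO1 and 6 in PEO4 among the 22215 probe sets by this difference, counted from the largest rise. DEPTOR was the 1 member probe set of 7 called in each line, where 1.5% of all probe sets were called in PEO1 and 1.44% in PEO4. The ACTB 3′ to 5′ difference also moved with E2 in PEO4, from 0.24 to 0.57 with vehicle to 0.68 to 1.02 with E2, and its part in the result was not tested. RNA came from whole cultures, so more transcript per cell and more cells with the transcript cannot be told apart.

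**Figure D1:**
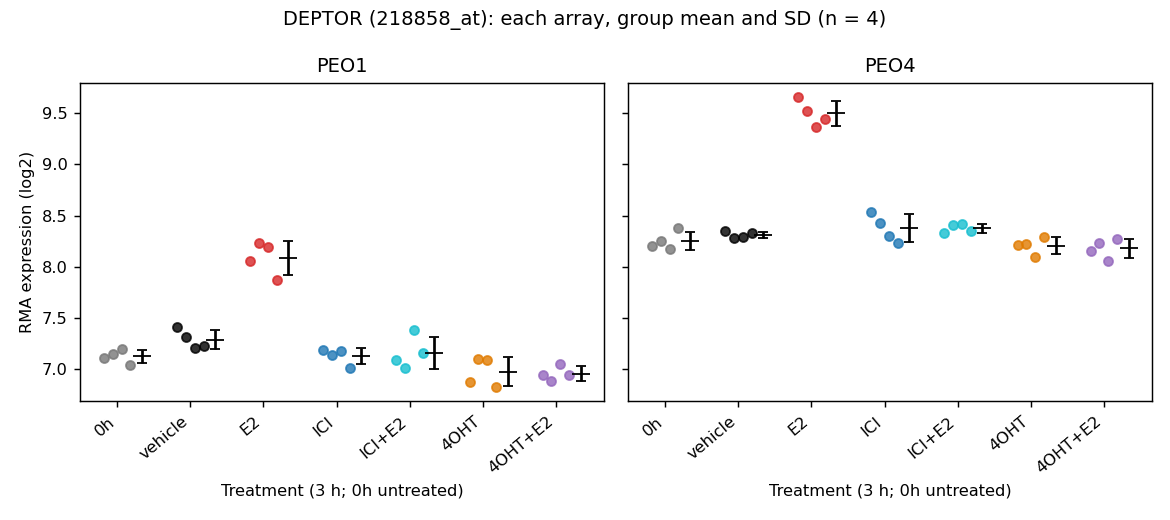
DEPTOR log2 expression on each array (points, 4 per group) with the group mean and SD, for the 7 groups of PEO1 and of PEO4. The E2 groups, with means of 8.09 and 9.50, lie above all other groups, whose means run from 6.95 to 7.28 in PEO1 and from 8.18 to 8.38 in PEO4.

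With either antagonist present, E2 left DEPTOR near its level without hormone. In PEO1 the ICI arrays read 7.18, 7.14, 7.17 and 7.01 and the ICI with E2 arrays 7.09, 7.01, 7.38 and 7.15. With 4OHT they read 6.87, 7.10, 7.09 and 6.82, and with 4OHT and E2 6.94, 6.88, 7.05 and 6.94. In both pairs the groups overlapped. Adding E2 moved DEPTOR by 0.03 under ICI (log2; 95% interval -0.13 to 0.20) and by -0.02 under 4OHT (-0.18 to 0.15). In PEO4 the ICI arrays read 8.54, 8.43, 8.30 and 8.23 and the ICI with E2 arrays 8.33, 8.41, 8.42 and 8.35. The 4OHT arrays read 8.21, 8.22, 8.09 and 8.29, and those with 4OHT and E2 8.16, 8.23, 8.05 and 8.27. Here too the pairs overlapped, with differences of 0.00 under ICI (-0.13 to 0.14) and -0.03 under 4OHT (-0.16 to 0.11). For E2 under ICI, limma called 0 of 7 member probe sets in each line, with 0 in PEO1 and 1 in PEO4 (DDIT4) at an unadjusted p under 0.05. It called 0% of all probe sets there in either line, with 722 in PEO1 and 2949 in PEO4 at an unadjusted p under 0.05. For E2 under 4OHT it called 0 of 7 members in each line, with 1 at an unadjusted p under 0.05 in PEO1 (TSC2 215735_s_at) and 1 in PEO4 (MTOR 215381_at). Among all probe sets 0% were called under 4OHT in PEO1, with 1663 at an unadjusted p under 0.05, and 0.0675% in PEO4.

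The loss of the E2 effect was itself past the threshold. In PEO1 the effect of E2 under ICI minus that of E2 alone was -0.77 ± 0.11 on the log2 scale (95% interval -1.01 to -0.54, limma adjusted p = 0.000405), and under 4OHT the difference was -0.82 ± 0.11 (-1.05 to -0.59, adjusted p = 0.000125). PEO4 gave -1.19 ± 0.09 under ICI (-1.38 to -1.0, adjusted p = 9.08e-09) and -1.22 ± 0.09 under 4OHT (-1.41 to -1.02, adjusted p = 7.08e-09). DEPTOR was the 1 member probe set of 7 called in each of these 4 comparisons. The shares of all probe sets called were 0.257% (ICI) and 0.455% (4OHT) in PEO1, and 0.617% and 0.387% in PEO4. These contrasts share the E2 and vehicle arrays with the comparison of E2 with vehicle, and they were added after values had been seen.

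Set directly against E2 alone, DEPTOR was 1.91-fold lower with ICI and E2 in PEO1 (log2 difference -0.93, limma adjusted p = 9.33e-09), while it was 2.18-fold lower in PEO4 (-1.12, adjusted p = 2.30e-11). With 4OHT and E2 it was 2.20-fold lower in PEO1 (-1.14, adjusted p = 1.45e-10) and 2.50-fold lower in PEO4 (-1.32, adjusted p = 3.18e-13). It ranked 14 and 4 from the lowest among all probe sets with ICI, in PEO1 and PEO4, and 3 and 2 with 4OHT. Of the members, 1 of 7 fell with ICI and E2 in each line (1.88% of all probe sets called in PEO1, 1.44% in PEO4). Of the same 7, DEPTOR and DDIT4 fell with 4OHT and E2 in each line (9.99% called in PEO1, 4.25% in PEO4). Without 4OHT with E2 replicate 4 of PEO4 the DEPTOR difference was -1.35 (adjusted p = 2.67e-12). The same E2 arrays serve these comparisons and that of E2 with vehicle.

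Without hormone, the antagonists moved DEPTOR less. In PEO1 the 4OHT arrays all lay below the vehicle arrays, and the mean fell by 0.31 on the log2 scale (95% interval -0.48 to -0.15, limma adjusted p = 0.0238). This call was lost when 4OHT replicate A (adjusted p = 0.0608), 4OHT replicate D (0.0780), vehicle replicate A (0.0936) or vehicle replicate B (0.0585) was left out, and with only the compared groups in the fit (0.0796). ICI arrays of PEO1 also lay below all vehicle arrays, but the difference of -0.16 (-0.32 to 0.01) had an adjusted p of 1.00. In PEO4 the difference was -0.11 with 4OHT (-0.24 to 0.03, adjusted p = 0.446) and 0.06 with ICI (-0.07 to 0.20, adjusted p = 0.619). With ICI, limma called 0 of 7 members in each line, with 1 (DDIT4) at an unadjusted p under 0.05 in PEO1 and 0 in PEO4. The shares of all probe sets called in this fit were 0.0585% and 0.0765%, with 1036 and 4123 at an unadjusted p under 0.05. With array weights limma called MTOR 215381_at with ICI in PEO4 (0.27, adjusted p = 0.0315). Those shares do not apply to that call. Array weights raised the count over all probe sets by over 1.5 times in 22 of 30 comparisons, ICI in PEO4 among them (counts in the last section).

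At the same dose and time, DEPTOR was lower with 4OHT than with ICI by amounts that did not pass the adjusted threshold. The 4 direct comparisons of these antagonists, with and without E2 in each line, gave log2 differences of -0.16 to -0.20. Without hormone they were -0.16 in PEO1 (95% interval -0.32 to 0.01, limma adjusted p = 0.327) and -0.17 in PEO4 (-0.31 to -0.03, adjusted p = 0.224). With E2 they were -0.20 in PEO1 (-0.37 to -0.04, adjusted p = 0.162) and -0.20 in PEO4 (-0.34 to -0.06, adjusted p = 0.111). In PEO4 with E2 the arrays of the antagonists did not overlap. P-values were adjusted over all probe sets within each comparison. In PEO4 DDIT4 was the 1 member of 7 called in either comparison, against 1.56% of all probe sets without hormone and 3.21% with E2. In PEO1 limma called 0 of 7 in both, with 2 members without hormone and 3 with E2 at an unadjusted p under 0.05 (2.39% and 2.71% of all probe sets called).

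Between 0 h and vehicle, DEPTOR differed by 0.16 in PEO1 (log2; 95% interval -0.00 to 0.33, limma adjusted p = 0.281) and by 0.06 in PEO4 (-0.08 to 0.19, adjusted p = 0.686). The 0 h arrays read 7.11, 7.14, 7.20 and 7.04 in PEO1 and 8.21, 8.25, 8.17 and 8.37 in PEO4. Ordered by mean, the PEO1 groups ran E2, vehicle, ICI with E2, ICI, 0 h, 4OHT, 4OHT with E2. The PEO4 order was E2, ICI with E2, ICI, vehicle, 0 h, 4OHT, 4OHT with E2. Only the E2 group stood apart from its neighbour, with gaps between means of 0.80 in PEO1 and 1.12 in PEO4. All other neighbours had overlapping arrays in both lines. The span of DEPTOR's group means, 1.14 in PEO1 and 1.32 in PEO4, exceeded that of 99.9% and 99.8% of probe sets.

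The E2 effect on DEPTOR was 0.39 ± 0.11 larger in PEO4 than in PEO1 on the log2 scale (95% interval 0.17 to 0.60), but limma's adjusted p for this difference was 0.121. None of its other responses differed between lines past the threshold either. Those differences, PEO4 minus PEO1, were 0.22 for ICI (adjusted p = 0.477), 0.21 for 4OHT (0.384), -0.19 for ICI with E2 against E2 (0.823), -0.19 for 4OHT with E2 against E2 (0.453) and -0.11 for vehicle against 0 h (0.792). For the 5 responses to E2 and the antagonists, limma called 0 of 7 members as differing between lines. At an unadjusted p under 0.05 there was 1 member for E2 (DEPTOR), 2 for ICI (DDIT4 and DEPTOR), 1 for 4OHT (MTOR 215381_at) and 0 for either antagonist with E2 against E2. The shares of all probe sets called were 0.32% for E2, 0.063% for ICI, 0.783% for 4OHT, 0.293% for ICI with E2 against E2 and 1.4% for 4OHT with E2 against E2.

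Among 172 genes whose group means spanned at least 0.5 in each line, the genes most like DEPTOR were OLFML3, SLC22A5, GREB1, PLCL2 and CA12. Likeness was Pearson's r over the 7 group means of a line, taken as a description. For OLFML3 r was 0.971 in PEO1 and 0.991 in PEO4, for SLC22A5 0.980 and 0.964, and for GREB1 0.986 and 0.958. For PLCL2 it was 0.986 and 0.958, and for CA12 0.948 and 0.979. In all, 10 genes had r over 0.9 in both lines. All genes were measured on the same arrays, and in each line 1 of DEPTOR's 7 means, that of E2, lay apart from the rest.

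DDIT4 fell between 0 h and vehicle in PEO4 and not in PEO1. The PEO4 arrays read 11.59, 11.56, 11.43 and 11.59 at 0 h, and 10.40, 10.31, 10.43 and 10.54 with vehicle. In PEO1 they read 10.81, 10.88, 10.68 and 10.80 at 0 h, and 10.87, 10.71, 10.97 and 10.74 with vehicle. All PEO4 arrays at 0 h lay above all those with vehicle, and the PEO1 groups overlapped. The PEO4 mean fell from 11.54 ± 0.075 to 10.42 ± 0.095 (SD, n = 4), a log2 difference of -1.12 ± 0.07 (SE), or 2.17-fold lower (limma adjusted p = 1.94e-11). This was the second-lowest difference of 22215 probe sets. The PEO1 difference was 0.03 ± 0.08 (95% interval -0.13 to 0.19, adjusted p = 0.90). The change differed between lines by -1.15 ± 0.10 (-1.35 to -0.94, adjusted p = 7.56e-11). DDIT4 was the 1 member of 7 called in PEO4 and in the difference between lines, against 4.89% and 1.46% of all probe sets. In PEO1 limma called 0 of 7 and 5.66% of all, with 0 members at an unadjusted p under 0.05.

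Vehicle cells differed from 0 h cells in time, in ethanol and in handling, and these cannot be told apart. RNA quality also moved in PEO4: the ACTB 3′ to 5′ difference was 0.50 to 2.28 at 0 h and 0.24 to 0.57 with vehicle. Without 0 h replicate 4, the array with 2.28, the DDIT4 difference was -1.10 (adjusted p = 3.24e-10). All 6 treated groups of PEO4 had DDIT4 means between 10.09 and 10.47, so the 0 h group was high against each of them.

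**Figure D2:**
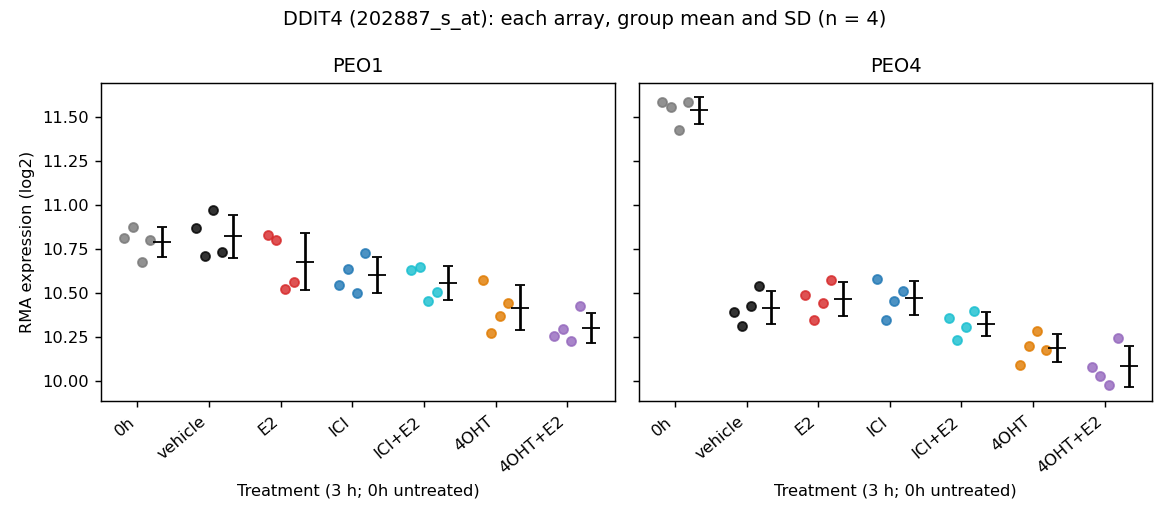
DDIT4 log2 expression on each array (points, 4 per group) with the group mean and SD, for the 7 groups of PEO1 and of PEO4. The PEO4 0 h group, mean 11.54, stands above the other PEO4 groups, and the 4OHT groups are the lowest in both lines, with means of 10.42 and 10.30 in PEO1 and 10.19 and 10.09 in PEO4.

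DDIT4 also fell with 4OHT in both lines. The PEO1 arrays with 4OHT read 10.58, 10.28, 10.37 and 10.45 and the PEO4 arrays 10.10, 10.20, 10.29 and 10.18, in each line all below the vehicle arrays. The fall was 0.41 ± 0.08 on the log2 scale in PEO1 (log2 difference -0.41, 95% interval -0.56 to -0.25, limma adjusted p = 0.00240) while the PEO4 difference was -0.23 ± 0.07 (-0.36 to -0.10, adjusted p = 0.0456). The difference between lines was 0.18 (adjusted p = 0.463). In PEO4 the call was lost without 4OHT replicate 1 (adjusted p = 0.130), 2 (0.0923) or 4 (0.103), without vehicle replicate 1 (0.0685), 3 (0.0965) or 4 (0.162), and with only the compared groups in the fit (0.0530). With E2 present the arrays with 4OHT read 10.26, 10.30, 10.23 and 10.43 in PEO1 and 10.08, 10.03, 9.98 and 10.25 in PEO4. These lay below all arrays with E2 alone, which read 10.83, 10.80, 10.52 and 10.56 in PEO1 and 10.49, 10.35, 10.45 and 10.58 in PEO4. The log2 difference was -0.38 ± 0.08 in PEO1 (-0.54 to -0.22, adjusted p = 0.00212) and -0.38 ± 0.07 in PEO4 (-0.52 to -0.25, adjusted p = 0.000364). Without 4OHT with E2 replicate 4, the PEO4 difference was -0.44 (9.61e-05). Of the 7 member probe sets 2 fell with 4OHT in PEO1 (DEPTOR and DDIT4), and in PEO4 2 fell (DDIT4 and TSC1) and 1 rose (MTOR 215381_at), against 4.21% and 3.93% of all probe sets called.

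Fulvestrant and estradiol gave no called change of DDIT4. With ICI the log2 difference from vehicle was -0.22 in PEO1 (95% interval -0.38 to -0.06, limma adjusted p = 0.905) and 0.05 in PEO4 (-0.08 to 0.19, adjusted p = 0.675). With E2 it was -0.14 in PEO1 (-0.30 to 0.02, adjusted p = 0.548) and 0.05 in PEO4 (-0.09 to 0.18, adjusted p = 0.995). With ICI and E2 against E2 it was -0.12 for PEO1 (adjusted p = 0.757) and -0.14 for PEO4 (0.435). The 2 antagonists differed in PEO4, where DDIT4 was lower with 4OHT than with ICI by a log2 difference of -0.28 (-0.42 to -0.15, adjusted p = 0.0193), with no overlap of arrays. That call was lost without 4OHT replicate 1 (0.0937), 2 (0.0530) or 4 (0.0514), without ICI replicate 1 (0.0864), the array with the ACTB difference of 3.41, and with only the compared groups in the fit (0.220). With E2 present the PEO4 difference was -0.24 (-0.38 to -0.11, adjusted p = 0.0392), with overlapping arrays. It lost its call without 4OHT with E2 replicate 1 (0.0674), 2 (0.106) or 3 (0.150), without ICI with E2 replicate 1 (0.106), 3 (0.0859) or 4 (0.118), and with only the compared groups (0.0722). In PEO1 4OHT differed from ICI by -0.19 (-0.35 to -0.03, adjusted p = 0.214), and with E2 by -0.26 (-0.42 to -0.10, adjusted p = 0.0678).

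Ordered by DDIT4 mean, the PEO1 groups ran vehicle, 0 h, E2, ICI, ICI with E2, 4OHT, 4OHT with E2, and all neighbours overlapped. The PEO4 groups ran 0 h, ICI, E2, vehicle, ICI with E2, 4OHT, 4OHT with E2, and only 0 h and ICI were apart, by 1.06. Genes most like DDIT4 over the 7 group means were PRR15L (r of 0.892 in PEO1 and 0.896 in PEO4), FUT9 (0.918 and 0.888), PCLO (0.893 and 0.874), NDC80 (0.950 and 0.822) and GOLPH3L (0.821 and 0.958). No gene reached r over 0.9 in both lines. In PEO4 the 0 h mean of DDIT4 lay apart from its other means, which weighs on r there. DEPTOR and DDIT4 had r = 0.434 in PEO1 and -0.0197 in PEO4.

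A list of 16 stress and hormone genes known to share inducers with DDIT4, 15 of them measured, moved in both directions. The list was chosen with earlier results of these data known, so its shares describe it and are no test. Between 0 h and vehicle in PEO4, 3 fell and 1 rose, or 26.7%, where 4.89% of all probe sets were called (6.30% with 1 probe set per gene, as in the list). TXNIP, an arrestin-like protein that limits glucose uptake, fell by 0.52 on the log2 scale (limma adjusted p = 1.57e-09). The angiogenic factor VEGFA differed by -0.39 (adjusted p = 0.000725), the mitophagy receptor BNIP3 by -0.26 (0.00407), and the kinase SGK1 by 0.52 (0.000420). The list's median was 0.00, against -0.02 over all probe sets. In PEO1 VEGFA fell (-0.41, 0.00432) and ADM, a vasodilator peptide, rose (0.21, 0.0146), where 5.66% of all probe sets were called (7.43% with 1 per gene). The difference between lines passed for TXNIP (-0.53, 1.04e-07) and SGK1 (0.56, 0.000805). With 4OHT against vehicle, 5 rose and 2 fell in PEO1, led by TXNIP (-0.41, 2.45e-05) and SGK1 (0.31, 0.00162). This was 46.7% of the list, against 4.21% of all probe sets (6.75% with 1 per gene). In PEO4 3 rose and 1 fell, or 26.7% against 3.93% (5.53% with 1 per gene), led by TXNIP (-0.44, 8.76e-08), SGK1 (0.65, 4.97e-05) and CDKN1A, an inhibitor of cyclin-dependent kinases (0.56, 0.00180).

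The MTOR and TSC genes had few called changes, all small. Over 10 comparisons a line, the brighter MTOR probe set had log2 differences of -0.18 to 0.05 in PEO1 and -0.11 to 0.01 in PEO4, and limma called 0 in each, with 3 and 0 at an unadjusted p under 0.05. The dimmer MTOR probe set was called with 4OHT in PEO4, where its mean went from 6.67 to 6.99 (difference 0.32 ± 0.09, 95% interval 0.14 to 0.50, adjusted p = 0.0330). The brighter one differed by -0.11 there (adjusted p = 0.485), and the array ranges of 215381_at overlapped. The 2 probe sets therefore did not move together, with r of -0.212 in PEO1 and -0.463 in PEO4 over group means. That call was lost without 4OHT replicate 1, 2 or 4 or vehicle replicate 2 or 3 (adjusted p of 0.0509 to 0.140), and with only the compared groups in the fit (0.0667). The filter on dim probe sets and the setting with 1 probe set per gene both dropped 215381_at, so its call was not checked under them. TSC1 was called lower with 4OHT in PEO4, at a mean of 8.60 against 8.79 with vehicle (difference -0.20 ± 0.05, -0.31 to -0.09, adjusted p = 0.0376), with no overlap of arrays. It lost its call without any 1 of the 4OHT arrays or without vehicle replicate 2, 3 or 4 (adjusted p of 0.0520 to 0.134). In PEO1 TSC1 ranged from -0.09 to 0.10. TSC2 215735_s_at ranged from -0.10 to 0.15 in PEO1 and -0.13 to 0.17 in PEO4, and 215624_at from -0.09 to 0.07 and -0.19 to 0.17. Limma called 0 of the TSC2 comparisons, with 1 for 215735_s_at in each line at an unadjusted p under 0.05. With 7 probe sets, a count of 1 or 2 called says nothing of the members as a group. Their median difference with E2 was -0.04 in PEO1 and 0.03 in PEO4.

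**Figure D3:**
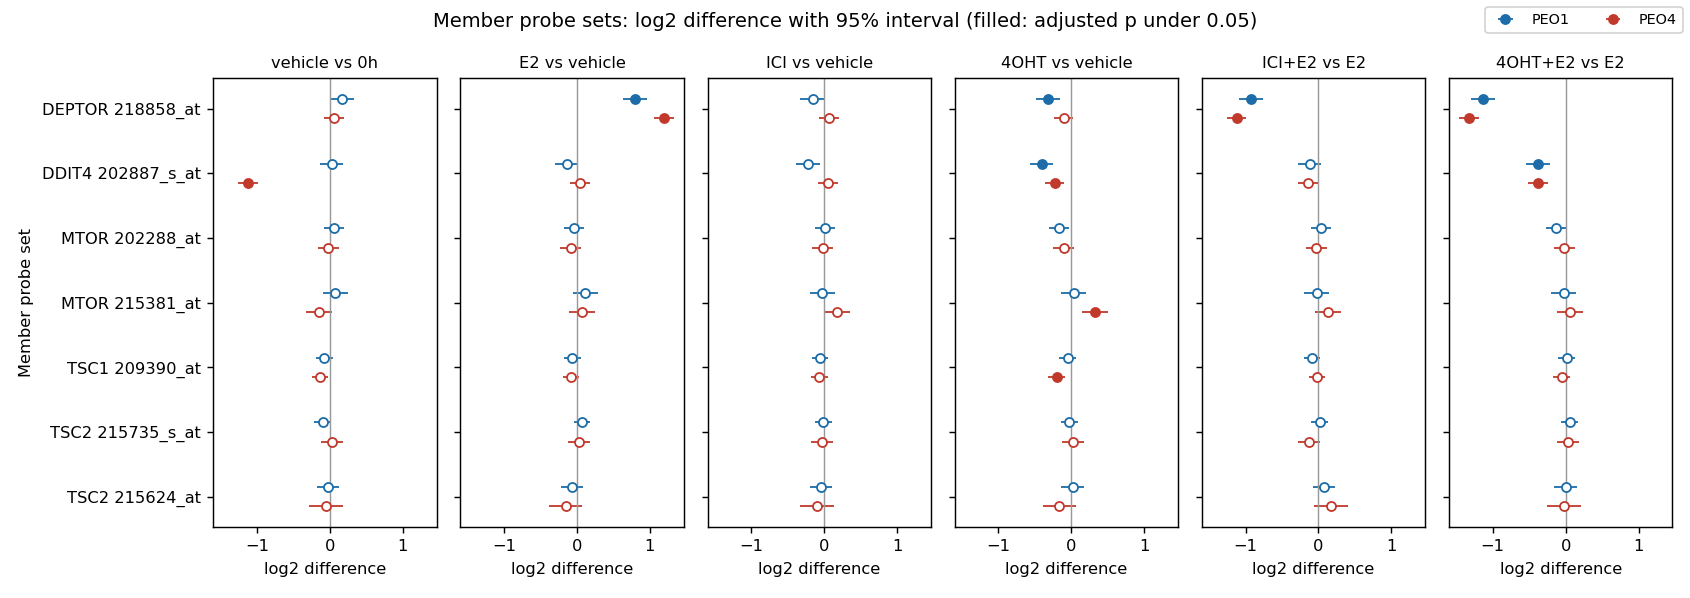
Log2 differences with 95% intervals for the 7 member probe sets in the main comparisons, in PEO1 and in PEO4. DEPTOR lies far from 0 with E2 (0.80 and 1.19), and DDIT4 with vehicle against 0 h in PEO4 (-1.12). The MTOR and TSC probe sets lie nearer to 0 than these, with MTOR 215381_at (0.32) and TSC1 (-0.20) called with 4OHT in PEO4.

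The rest of the mTOR pathway was taken from 7 lists that held 90 genes, 65 of them measured. These lists were also chosen with earlier results of these data known, and their shares are no test. With E2 in PEO1, 4 rose and 0 fell, or 6.15%, with a median of 0.02, where 1.5% of all probe sets were called (2.09% with 1 probe set per gene, as in the lists). These were IGF1R, a receptor that feeds into the pathway (0.24 ± 0.04, limma adjusted p = 0.000520), the lipid phosphatase INPP4B (0.28, 0.00684), and the mTORC1 targets LPIN1 (0.26, 0.00394) and ULK1, the kinase that starts autophagy (0.30, 0.00865). In PEO4 limma called 0 of the 65, with 7 at an unadjusted p under 0.05, and IGF1R differed by 0.17 (adjusted p = 0.256). The difference between lines for IGF1R was -0.08 (adjusted p = 0.999). With 4OHT and E2 against E2, 4 rose and 7 fell in PEO1 and 4 rose and 2 fell in PEO4. These 16.9% and 9.23% stood beside 9.99% and 4.25% of all probe sets (12.7% and 5.73% with 1 per gene). SGK1, a kinase of the AKT family that mTORC2 activates, rose in both lines (0.55, 1.50e-07 in PEO1 and 0.40, 0.00588 in PEO4). PIK3CD, a catalytic subunit of phosphoinositide 3-kinase, rose by 0.24 in PEO1 and 0.54 in PEO4. IGF1R fell in both (-0.20 and -0.30). With 4OHT against vehicle, 1 rose and 5 fell in PEO1 and 2 rose and 1 fell in PEO4. These 9.23% and 4.62% stood beside the 4.21% and 3.93% of all probe sets (6.75% and 5.53% with 1 per gene). In PEO4 PIK3R3, a regulatory subunit of the same lipid kinase, fell by 0.43 (log2 difference -0.43, 0.000280). None of the 6 measured genes of the DEPTOR degradation machinery was called by limma in any comparison, with 10 of 180 tests at an unadjusted p under 0.05.

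**Figure D4:**
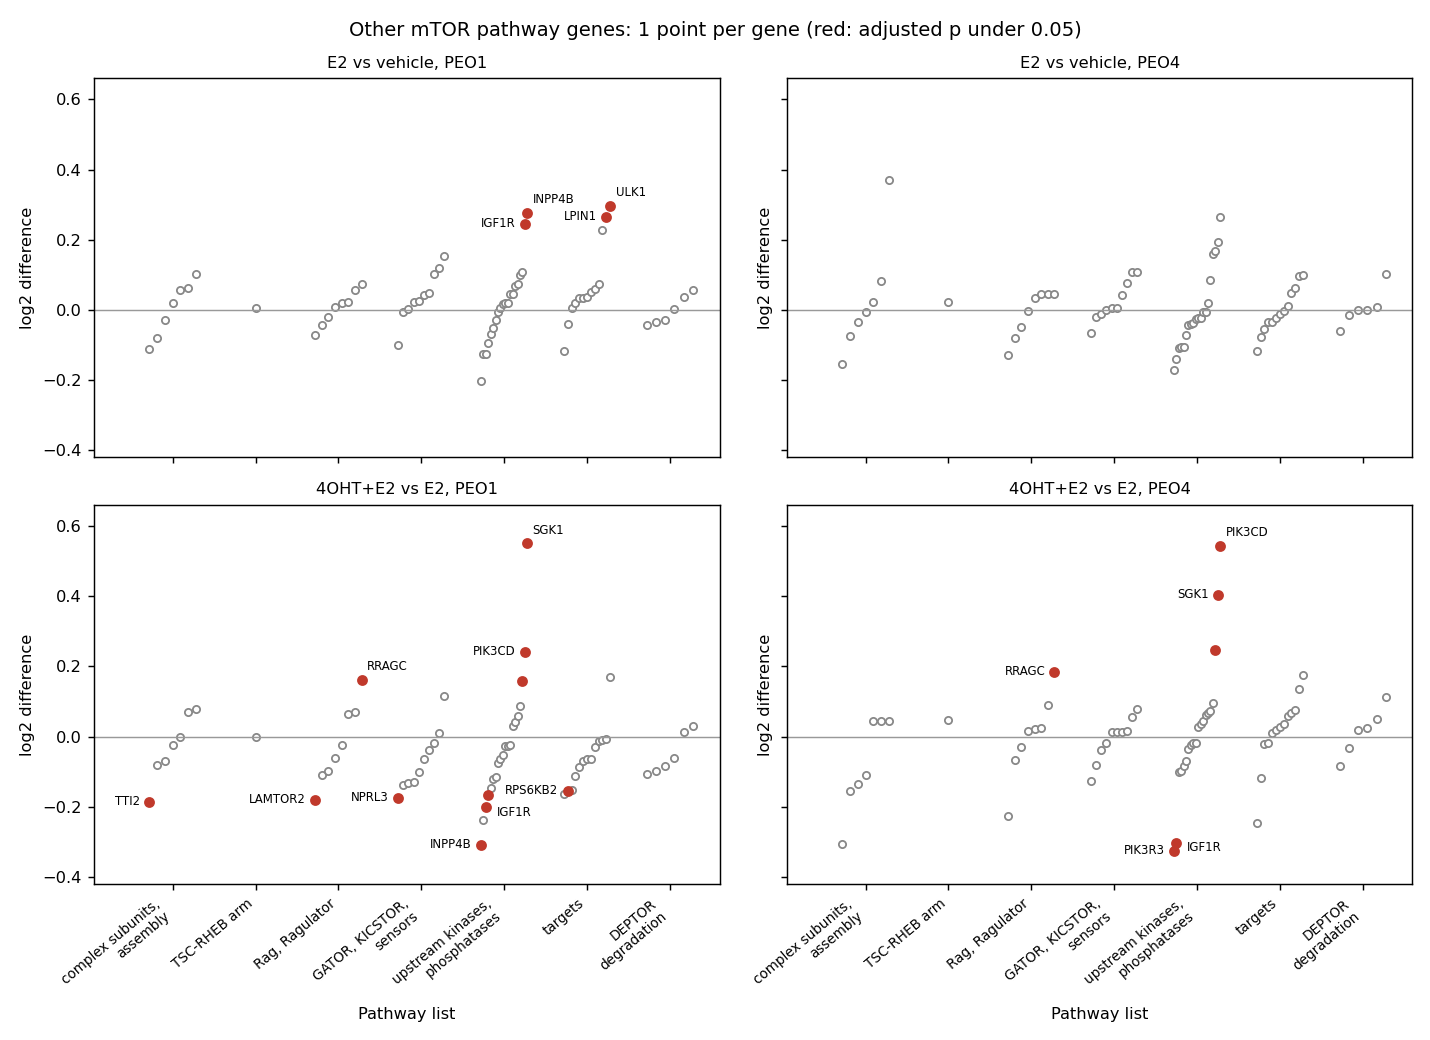
Log2 differences of the other mTOR pathway genes, 1 point per gene by list, for E2 against vehicle and for 4OHT with E2 against E2 in PEO1 and PEO4, with genes at an adjusted p under 0.05 filled and up to 4 named in each list. With E2 4 genes are filled in PEO1 and 0 in PEO4, and with 4OHT and E2 against E2 11 and 6.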

How the data were processed

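RNA from 56 arrays, 28 per line, was compared. The authors deposited log2 values made by RMA, per the submitters' processing notes. The version of RMA is not given in the sources used here. Of 22277 probe sets, 62 controls were set aside. Symbols came from the array's annotation, in which 19064 probe sets had 1 symbol, 1043 several and 2108 none. Each line was fitted apart with limma 3.58.1 (R 4.3.3), using group means, 21 residual degrees of freedom and Benjamini-Hochberg adjustment over 22215 probe sets, called at an adjusted p under 0.05. Differences between lines came from 1 fit of 56 arrays. The fit was checked on simulated data with independent noise. These held no replicate effects and no arrays of poor RNA quality, so that check does not bear on either. The number of arrays limits the precision. RMA values hold no detection calls, and low values were not filtered.

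The members, lists and tests were chosen with earlier results of these data known. PEO4 arrays titled Tam were read as 4OHT from the series description. Pathway genes stand for the probe set with the highest mean, and up to 4 called genes of a list are named by smallest adjusted p. Likeness names the 5 genes with the highest lower r. Other settings tried were a filter on dim probe sets (lowest 40 percent), eBayes with trend and robust options, 1 probe set per gene, quantile normalization, the replicate block, array weights, only the compared groups, and leaving out arrays. Promoter sequence came from RefSeq's table for GRCh38.p14.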

Additional observations from a re-analysis of the deposited data

Results flagged for a closer look

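Among 98 groups of 4 arrays of a member probe set, 4 held an array far from the others, where chance gives about 5 percent of groups. MTOR 202288_at read 7.21 on PEO1 E2 replicate A, with the others at 7.45 to 7.47. MTOR 215381_at read 6.66 on PEO4 0 h replicate 2, with the others at 6.86 to 6.87. TSC1 read 8.81 on PEO4 ICI replicate 1, the array with the highest ACTB 3′ to 5′ difference, with the others at 8.69 to 8.71. TSC2 215735_s_at read 7.91 on PEO1 0 h replicate D, with the others at 8.14 to 8.15. The change of DDIT4 between 0 h and vehicle differed between the lines, by -1.15 in PEO4 minus PEO1.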

How the results depend on the processing

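DEPTOR kept both its side of the threshold and its sign in 527 of 548 alternatives, and DDIT4 in 503 of 548, over all comparisons, called or not. Replicate labels showed no clear pairing of the arrays in PEO1, and pairing in PEO4 was not settled. Same-label deviations correlated at -0.383 to 0.323 in PEO1 (median 0.010) and -0.569 to 0.530 in PEO4 (median 0.076), with 24 and 36 of 84 pairs over 0.1. Pairs with different labels had medians of -0.00017 in PEO1 and -0.0097 in PEO4. Of 28 arrays in a line, 7 in PEO1 and 12 in PEO4 correlated best with their own label. With the replicate block 0 of 210 member calls changed: the E2 effect on DEPTOR was 0.80 in PEO1 (adjusted p = 6.22e-08) and 1.19 in PEO4 (1.41e-11). With only the compared groups, differences lost their call for DEPTOR with 4OHT in PEO1 (-0.31) and, in PEO4, for DDIT4 with 4OHT against ICI (-0.28), with 4OHT (-0.23) and with 4OHT and E2 against ICI and E2 (-0.24), and for MTOR 215381_at with 4OHT (0.32, adjusted p = 0.0667). Leaving out PEO4 0 h replicate 4 and ICI replicate 1 together took the call from DDIT4 with 4OHT against ICI in PEO4 (-0.25, adjusted p = 0.0754) and gave 1 to DEPTOR with 4OHT and E2 against ICI and E2 in PEO4 (-0.20, 0.0420). Array weights gave calls to that DEPTOR difference (-0.19, 0.0238), to DEPTOR's E2 difference between lines (0.39, 0.0225) and to DDIT4 with 4OHT and E2 against ICI and E2 in PEO1 (-0.27, 0.0461). They also gave 1 to MTOR 215381_at with ICI in PEO4 (0.27, 0.0315). The DDIT4 difference also passed with dim probe sets left out (-0.26, 0.0379) and with a trend and robust variance (-0.26, 0.0447).

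Leaving out 1 array at a time gave ranges of -0.36 to -0.27 for DEPTOR with 4OHT in PEO1, -0.23 to -0.16 for DEPTOR with 4OHT and E2 against ICI and E2 in PEO4, and 0.31 to 0.43 for its E2 difference between lines. For DDIT4 they were -0.33 to -0.25 with 4OHT against ICI in PEO4, -0.27 to -0.19 with 4OHT in PEO4, and, with 4OHT and E2 against ICI and E2, -0.30 to -0.23 in PEO1 and -0.30 to -0.21 in PEO4. Any change of sign was counted, however small. Signs turned in 216 of 3716 alternatives, 181 of them with 1 array left out (66 differences) and 35 with other settings. None was of a difference called by limma in either fit, and the largest of these had a size of 0.14. DDIT4 turned with array weights to -0.025 (E2 effect under 4OHT minus alone, PEO1). DEPTOR turned with array weights to 0.018 (4OHT and E2 against 4OHT, PEO1), -0.0071 (ICI and E2 against ICI, PEO1). MTOR 202288_at turned with array weights to 0.012 (4OHT against ICI, PEO4), -0.027 (4OHT and E2 against 4OHT, PEO1), 0.0020 (4OHT and E2 against E2, PEO4), 0.11 (E2 effect under ICI minus alone, PEO4). MTOR 202288_at turned with array weights to 0.023 (ICI and E2 against ICI, PEO4), 0.00044 (vehicle against 0 h, PEO4). MTOR 215381_at turned with array weights to -0.019 (4OHT and E2 against ICI and E2, PEO1), 0.027 (E2 effect under ICI minus alone, PEO1), 0.013 (E2 against vehicle, PEO4 minus PEO1), -0.062 (ICI and E2 against ICI, PEO4). TSC1 turned with array weights to -0.028 (4OHT against ICI, PEO1), -0.0012 (4OHT and E2 against E2, PEO1). TSC2 215624_at turned with array weights to -0.043 (E2 effect under 4OHT minus alone, PEO4), 0.017 (vehicle against 0 h, PEO4 minus PEO1). TSC2 215735_s_at turned with array weights to 0.063 (4OHT and E2 against E2, PEO4 minus PEO1), 0.041 (E2 effect under ICI minus alone, PEO4), -0.030 (E2 against vehicle, PEO4), 0.011 (ICI and E2 against ICI, PEO4). MTOR 202288_at turned with those PEO4 arrays left out to 0.052 (E2 effect under ICI minus alone, PEO4), 0.021 (vehicle against 0 h, PEO4). DDIT4 turned with quantile normalization to -0.010 (vehicle against 0 h, PEO1). MTOR 202288_at turned with quantile normalization to -0.028 (4OHT and E2 against 4OHT, PEO4), -0.016 (4OHT and E2 against ICI and E2, PEO4), 0.0066 (ICI against vehicle, PEO4). MTOR 215381_at turned with quantile normalization to -0.032 (4OHT and E2 against ICI and E2, PEO1), 0.0076 (ICI against vehicle, PEO1). TSC1 turned with quantile normalization to -0.0047 (4OHT and E2 against 4OHT, PEO1), 0.0037 (E2 against vehicle, PEO4 minus PEO1). TSC2 215624_at turned with quantile normalization to 0.014 (4OHT and E2 against E2, PEO4 minus PEO1). TSC2 215735_s_at turned with quantile normalization to 0.0032 (4OHT against vehicle, PEO1), -0.0079 (E2 effect under 4OHT minus alone, PEO4), 0.0049 (ICI against vehicle, PEO1). DDIT4 ran, as a difference between lines without 1 array, over -0.058 to 0.049 (4OHT and E2 against E2), -0.069 to 0.033 (ICI and E2 against E2). PEO1 ranges of DDIT4 without 1 array were -0.025 to 0.081 (E2 effect under 4OHT minus alone), -0.021 to 0.066 (vehicle against 0 h). PEO1 ranges of DEPTOR without 1 array were -0.066 to 0.025 (4OHT and E2 against 4OHT), -0.043 to 0.079 (ICI and E2 against ICI). PEO4 ranges of DEPTOR without 1 array were -0.064 to 0.014 (4OHT and E2 against 4OHT), -0.047 to 0.056 (ICI and E2 against ICI). PEO1 ranges of MTOR 202288_at without 1 array were -0.040 to 0.038 (4OHT and E2 against 4OHT), -0.023 to 0.073 (E2 effect under 4OHT minus alone), -0.034 to 0.078 (E2 effect under ICI minus alone), -0.060 to 0.027 (E2 against vehicle). PEO1 ranges of MTOR 202288_at without 1 array were -0.011 to 0.034 (ICI against vehicle), -0.024 to 0.088 (ICI and E2 against E2), -0.059 to 0.043 (ICI and E2 against ICI). PEO4 ranges of MTOR 202288_at without 1 array were -0.049 to 0.078 (4OHT and E2 against 4OHT), -0.070 to 0.057 (4OHT and E2 against E2), -0.042 to 0.085 (4OHT and E2 against ICI and E2), -0.056 to 0.052 (E2 effect under ICI minus alone). PEO4 ranges of MTOR 202288_at without 1 array were -0.080 to 0.028 (ICI against vehicle), -0.046 to 0.00048 (ICI and E2 against E2), -0.059 to 0.021 (vehicle against 0 h). MTOR 202288_at ran, as a difference between lines without 1 array, over -0.089 to 0.018 (ICI against vehicle). PEO1 ranges of MTOR 215381_at without 1 array were -0.037 to 0.14 (4OHT against vehicle), -0.060 to 0.010 (4OHT and E2 against E2), -0.030 to 0.022 (4OHT and E2 against ICI and E2), -0.17 to 0.013 (E2 effect under 4OHT minus alone). PEO1 ranges of MTOR 215381_at without 1 array were -0.11 to 0.067 (E2 effect under ICI minus alone), -0.093 to 0.085 (ICI against vehicle), -0.062 to 0.0083 (ICI and E2 against E2), -0.030 to 0.15 (vehicle against 0 h). PEO4 ranges of MTOR 215381_at without 1 array were -0.10 to 0.049 (E2 effect under ICI minus alone), -0.0075 to 0.13 (E2 against vehicle), -0.029 to 0.11 (ICI and E2 against ICI). MTOR 215381_at ran, as a difference between lines without 1 array, over -0.16 to 0.019 (E2 against vehicle). PEO1 ranges of TSC1 without 1 array were -0.022 to 0.032 (4OHT against ICI), -0.030 to 0.035 (4OHT and E2 against 4OHT), -0.019 to 0.046 (4OHT and E2 against E2), -0.065 to 0.032 (E2 effect under ICI minus alone). TSC1 ran, as a difference between lines without 1 array, over -0.054 to 0.043 (E2 against vehicle), -0.044 to 0.053 (ICI against vehicle). PEO4 ranges of TSC1 without 1 array were -0.057 to 0.0049 (ICI and E2 against E2). PEO1 ranges of TSC2 215624_at without 1 array were -0.027 to 0.049 (4OHT against vehicle), -0.060 to 0.084 (4OHT and E2 against E2), -0.079 to 0.065 (E2 effect under 4OHT minus alone). PEO4 ranges of TSC2 215624_at without 1 array were -0.081 to 0.11 (4OHT and E2 against 4OHT), -0.12 to 0.099 (4OHT and E2 against E2), -0.14 to 0.038 (vehicle against 0 h). TSC2 215624_at ran, as a difference between lines without 1 array, over -0.12 to 0.099 (4OHT and E2 against E2), -0.16 to 0.014 (E2 against vehicle), -0.098 to 0.0095 (ICI against vehicle), -0.0064 to 0.16 (ICI and E2 against E2). TSC2 215624_at ran, as a difference between lines without 1 array, over -0.11 to 0.066 (vehicle against 0 h). PEO1 ranges of TSC2 215735_s_at without 1 array were -0.046 to 0.022 (4OHT against ICI), -0.0038 to 0.063 (E2 effect under ICI minus alone), -0.047 to 0.020 (ICI against vehicle), -0.0038 to 0.040 (ICI and E2 against E2). PEO4 ranges of TSC2 215735_s_at without 1 array were -0.0010 to 0.049 (4OHT against vehicle), -0.014 to 0.13 (4OHT and E2 against E2), -0.038 to 0.11 (E2 effect under 4OHT minus alone), -0.061 to 0.085 (E2 against vehicle). PEO4 ranges of TSC2 215735_s_at without 1 array were -0.064 to 0.011 (ICI against vehicle), -0.0043 to 0.062 (vehicle against 0 h). TSC2 215735_s_at ran, as a difference between lines without 1 array, over -0.068 to 0.078 (4OHT and E2 against E2), -0.13 to 0.017 (E2 against vehicle), -0.055 to 0.024 (ICI against vehicle). The cause was not tested. Counts over all probe sets moved by over 1.5 times in 53 of 228 comparisons and settings, 22 of 30 with array weights, all upward (from 319 to 710 for E2, 874 to 2943 for 4OHT and 17 to 3117 for ICI in PEO4). With only the compared groups 15 of 30 moved, 14 of them downward (in PEO1 from 333 to 189 for E2, 936 to 251 for 4OHT and 2220 to 564 for 4OHT and E2 against E2). Without those 2 PEO4 arrays 10 of 18 moved, and with the replicate block 3 of 30 (17 to 56 for ICI in PEO4).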
